A study of Mus musculus with 6 samples.

Results

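The neuronal intermediate filament genes were described in sorted cells of the mouse cortex around an infarct, in animals given the lipid 15-HETrE or vehicle after stroke. The family was defined by gene name and has 5 members of the 24419 genes in the deposited table: Nefl, Nefm and Nefh, which encode the light, medium and heavy neurofilament chains, Ina, which encodes alpha-internexin, and Prph, which encodes peripherin. The family was picked because Nefl had been seen among the smallest p-values of genes higher in 15-HETrE. The differences of its members between the groups are therefore given as a description, without a test, and support nothing by themselves. Of the 5 members, 4 reached a mean of 1 CPM (counts per 1e6 reads, scaled by the authors with a factor for each library), and Prph did not.

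The 15-HETrE group received 600 ng of this hydroxylated fatty acid in 150 µL of phosphate-buffered saline by vein, 24, 48 and 72 h into the stroke, and the vehicle group received vehicle on the same schedule. All animals were male wild-type C57BL/6N mice whose middle cerebral artery had been occluded for 60 min, so both groups carried a stroke, and tissue was taken on day 4. The labels give no age and do not say whether animals were pooled. Dissociation took 75 min in pronase, and cells were sorted for Thy1 and against ACSA2, CD31, CD45 and O4. Each group had 3 RNA-seq libraries, so spreads and p-values cover these libraries and may be technical.

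The libraries held 5405245 to 22558400 reads assigned to genes and 13763 to 17915 genes with a read. The column names gave each library's group; they are called 15-HETrE 1, unnumbered and combined, and vehicle 1, 2 and combined. The 2 combined libraries were the shallowest, and the meaning of "combined" is not stated in the labels. Pan-neuronal markers were present in every library, with 3413 to 6285 CPM in sum over 10 genes in 15-HETrE and 2205 to 3545 CPM in vehicle libraries. Although O4 was gated out, 7 oligodendrocyte markers summed to 15741 to 30735 CPM in 15-HETrE and 14690 to 22138 CPM in vehicle libraries. The 5 oligodendrocyte precursor markers summed to 2117 to 3339 CPM in 15-HETrE and 2057 to 3917 CPM in vehicle libraries. They exceeded the pan-neuronal sum in vehicle 2 (2488 against 2205 CPM) and vehicle combined (3917 against 2741 CPM). The 4 erythrocyte markers had no read in any library.

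Neurofilaments are the main intermediate filaments of axons, where they set caliber and with it the speed of conduction. The light, medium and heavy chains and alpha-internexin coassemble in the central nervous system. Alpha-internexin appears early in neuronal development. Peripherin belongs mainly to neurons of the peripheral nervous system and to central neurons that project out to the periphery. Neurofilament proteins are made in the cell body and carried slowly along the axon. The light chain that leaks from injured axons is measured in blood as a marker of axonal damage.

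The members lie on 4 chromosomes (positions from GENCODE M21, GRCm38, which is the same assembly as mm10). Nefl (ENSMUSG00000022055.7) lies on the plus strand of chromosome 14, from 68083863 to 68089095. Nefm (ENSMUSG00000022054.11) lies on the minus strand of the same chromosome, from 68082590 to 68124846. Nefh (ENSMUSG00000020396.8) lies on chromosome 11, from 4938754 to 4948064, minus strand. Ina (ENSMUSG00000034336.3) lies on chromosome 19, from 47014698 to 47025327, plus strand, and Prph (ENSMUSG00000023484.14) on chromosome 15, from 99055174 to 99058978, plus strand. A long Nefm transcript model runs through Nefl on the opposite strand and shares 1108 exon bases, 32.8% of the Nefl transcript. In RefSeq the same genes do not overlap and lie 30449 bases apart. Ina shares 456 exon bases with Nt5c2 on the opposite strand. Which annotation the authors counted with, and whether strand was used, is not stated in the labels, so reads in these stretches cannot be assigned with certainty.

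Transcripts of the 4 abundant members were higher in each of the 3 15-HETrE libraries than in each of the 3 vehicle libraries, and Prph had next to no reads. The average was 2.25-fold to 3.78-fold on the log2(CPM + 1) scale, with Nefl at the top and Ina at the bottom of that range. Over the 14523 genes whose mean reached 1 CPM, 0 were called higher (0%) and 0 lower (0%) at an adjusted p of 0.05 with limma, the smallest adjusted p being 0.131. At an unadjusted p under 0.05, 620 (4.27%) were higher and 760 (5.23%) lower; edgeR's quasi-likelihood test also called 0 genes, with 1232 at an unadjusted p under 0.05. Other settings did call genes, higher and lower: 35 and 130 with DESeq2, 1059 and 1366 with library weights, 1 and 7 with the name prefix as a batch term, 2 and 108 without vehicle combined, and 3 and 201 without both combined libraries. The groups did not overlap for 993 of these genes (6.84%) with 15-HETrE higher. The members' 4 of 4 stands beside that share, but the family was chosen from this contrast, so nothing is read from it. In bulk libraries a smaller number of neurons and less RNA per neuron cannot be told apart.

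Nefl, whose product is the core that the other chains assemble with, had 196, 174 and 376 CPM in 15-HETrE 1, unnumbered and combined, against 75.2, 33.5 and 90.3 CPM in vehicle 1, 2 and combined. The combined library stood highest in each group, and vehicle 2 was far below the other vehicle libraries. Nefl averaged 249 ± 111 CPM in 15-HETrE and 66.3 ± 29.4 CPM in vehicle libraries (SD, n = 3 each), a log2 difference of 1.92 (SE 0.41). The lowest 15-HETrE library held 1.92 times the CPM of the highest vehicle library. These levels rest on 10001 reads in 15-HETrE and 2855 in vehicle, with no library under 502 reads.

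Nefm encodes the medium chain, whose long tail projects from the filament. It had 67.2, 53.5 and 48.3 CPM in 15-HETrE 1, unnumbered and combined, against 37.5, 17.5 and 20.1 CPM in vehicle 1, 2 and combined. Here 15-HETrE combined was the lowest library of its group, the opposite of its place for Nefl. Nefm averaged 56.3 ± 9.76 CPM in 15-HETrE and 25.1 ± 10.8 CPM in vehicle libraries, a log2 difference of 1.20 (SE 0.37).

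Nefh encodes the heavy chain, which is added as axons mature and is phosphorylated along its tail. The tail holds repeats of lysine, serine and proline, and these serines are the phosphorylated sites. In the coding sequence of Nefh (3270 bases), 51 codon triplets for lysine, serine and proline were found in frame, against 4 in Nefm and 0 in Nefl, Ina and Prph. The stretch below shows the repeat that sets the heavy chain apart. It is coding bases 1555 to 1680 of Nefh-201 at chr11:4940938-4941063 (GRCm38, minus strand, GENCODE M21), with in-frame matches to AAGTCNCCN in capitals, 7 of the 34 in Nefh.
Nefh: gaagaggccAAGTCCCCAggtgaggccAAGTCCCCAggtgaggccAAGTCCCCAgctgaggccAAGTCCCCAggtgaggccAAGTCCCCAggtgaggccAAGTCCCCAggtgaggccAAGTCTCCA

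Nefh had 34.5, 81.8 and 37.6 CPM in 15-HETrE 1, unnumbered and combined, against 16.7, 8.37 and 26.1 CPM in vehicle 1, 2 and combined. The unnumbered 15-HETrE library was more than double the others of its group, a place it held for no other member. Nefh averaged 51.3 ± 26.5 CPM in 15-HETrE and 17.0 ± 8.86 CPM in vehicle libraries, a log2 difference of 1.55 (SE 0.49). Without the unnumbered library the log2 difference was 1.17. That library also had the highest sum of oligodendrocyte markers, 30735 CPM, and the part of this in the Nefh value was not tested.

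Ina, the neurofilament partner that appears early in development, had 49.3, 58.3 and 71.8 CPM in 15-HETrE 1, unnumbered and combined. In vehicle 1, 2 and combined it had 38.1, 26.0 and 17.1 CPM. The combined libraries were thus the highest of the 15-HETrE group and the lowest of the vehicle group. Ina averaged 59.8 ± 11.3 CPM in 15-HETrE and 27.1 ± 10.5 CPM in vehicle libraries, a log2 difference of 1.17 (SE 0.36). Without both combined libraries it was 0.75. The vehicle combined value rests on 95 reads, with an exact 95% Poisson interval of 76.9 to 116 reads, which covers counting error only.

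Prph was close to absent. It had 1, 0 and 0 reads in 15-HETrE 1, unnumbered and combined, and 1, 29 and 0 reads in vehicle 1, 2 and combined. All but 2 of its 31 reads thus came from vehicle 2, at 1.30 CPM there. A count of 0 allows up to 3 reads, 0.179 CPM in 15-HETrE unnumbered, 0.405 CPM in 15-HETrE combined and 0.540 CPM in vehicle combined. The 5 peripheral and sensory neuron markers summed to 4.36 to 9.33 CPM in 15-HETrE and 3.51 to 4.68 CPM in vehicle libraries, and 2 of them had no read in any library. Vehicle 2 was the library with the lowest Nefl, Nefm and Nefh.

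**Figure D1:**
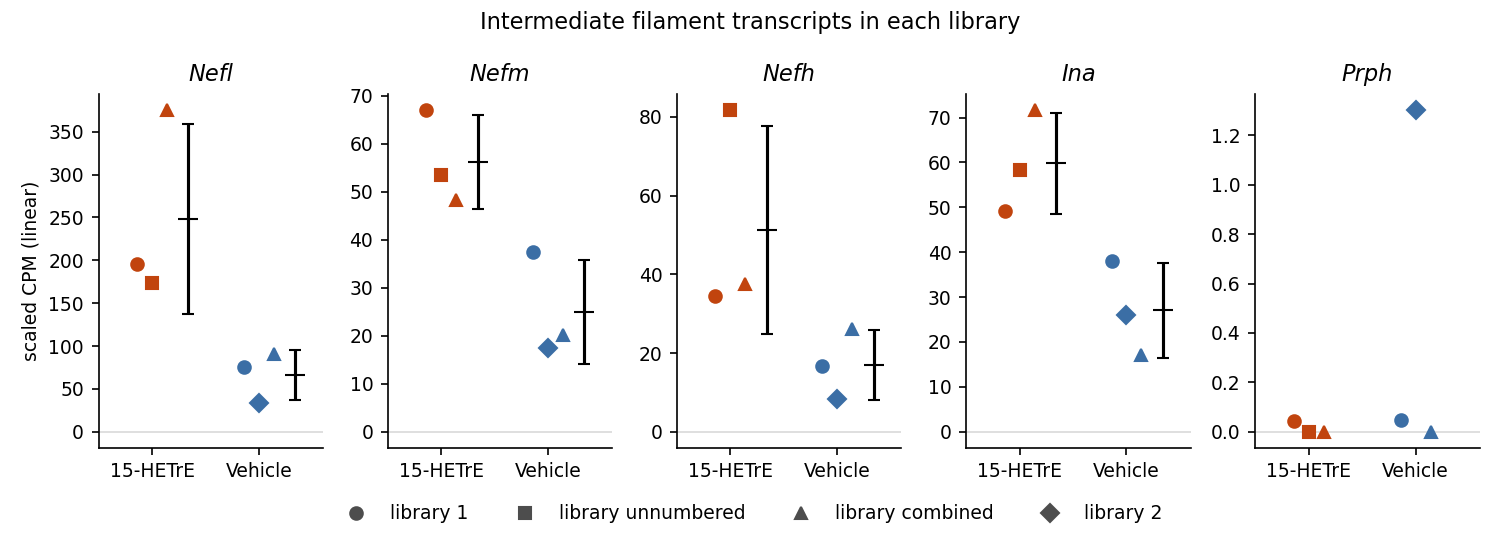
Scaled CPM of each member in every library (points, linear axis), with the mean and SD over 3 libraries per group beside the points for all but Prph. The 15-HETrE points of Nefl, Nefm, Nefh and Ina lie above all vehicle points, and the single raised Prph point is vehicle 2 at 1.30 CPM.

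The RefSeq promoter table (GRCm38.p6) holds 2 of the 5 members, Ina and Prph, which are the abundant and the nearly silent end of the family outside the neurofilament chains. The 250 bases upstream of each gene start, both plus strand, are shown 5′ to 3′ to compare their core elements, with TATAAA and GGGCGG on either strand in capitals (TTTATA and CCGCCC when on the minus strand).
Ina, chr19:47014431-47014680: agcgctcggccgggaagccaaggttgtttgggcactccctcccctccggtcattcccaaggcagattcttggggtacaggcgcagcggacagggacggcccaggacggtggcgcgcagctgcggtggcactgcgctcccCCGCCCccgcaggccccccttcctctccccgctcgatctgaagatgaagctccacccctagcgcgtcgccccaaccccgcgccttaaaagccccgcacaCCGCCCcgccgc
Prph, chr15:99054924-99055173: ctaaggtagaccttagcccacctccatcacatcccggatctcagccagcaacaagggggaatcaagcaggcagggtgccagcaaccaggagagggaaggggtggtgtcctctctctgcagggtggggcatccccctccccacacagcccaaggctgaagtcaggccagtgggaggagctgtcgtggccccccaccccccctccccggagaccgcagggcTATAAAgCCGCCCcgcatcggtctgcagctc
Prph held 1 TATAAA, starting 31 bases upstream of the start, and 1 GGGCGG. Ina held 2 GGGCGG and 0 TATAAA. The motifs do not overlap each other. TATAAA was found in 12.4% and GGGCGG in 32.7% of the 32851 upstream windows of the same length. These are matches of letters only and say nothing of binding.

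Levels of different genes were compared per kilobase of transcript, since longer transcripts yield more reads. Nefl held the largest share of the family's summed CPM per kilobase in all 6 libraries. It made up 56.9%, 48.5% and 70.7% in 15-HETrE 1, unnumbered and combined, and 45.0%, 38.1% and 60.0% in vehicle 1, 2 and combined. Averaged over all libraries on the log2 scale the order was Nefl, Ina, Nefm, Nefh and Prph. The choice of the family did not compare its members with each other, though it used the values of Nefl in these libraries. Neighbours in the order were compared by an exact two-sided sign-flip permutation test over 6 libraries, adjusted over the 4 pairs. The pairs and their directions were taken from the same values that were tested, so the p-values are a description. The smallest p this test can give is 0.03125.

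Nefl exceeded Ina by 1.56 ± 0.82 (log2, SD, n = 6), in 6 of 6 libraries (exact p = 0.03125, adjusted 0.0625). Ina and Nefm differed by 0.14 ± 0.42, less than their spread, with Ina higher in 4 of 6 libraries (exact p = 0.375, adjusted 0.375). Nefm exceeded Nefh by 0.69 ± 0.77 in 4 of 6 libraries, also within its spread (exact p = 0.125, adjusted 0.1667). Nefh exceeded Prph by 7.78 ± 3.37 in 6 of 6 libraries (exact p = 0.03125, adjusted 0.0625), a size that depends on the 0.01 added before the logarithm, since Prph was at 0 in 3 libraries. No pair passed after adjustment, and a pair at the smallest possible p could not pass unless other pairs reached that p too. With coding length in place of transcript length, Nefl over Ina, Ina over Nefm and Nefh over Prph each reached an adjusted exact p of 0.0417, with differences of 1.50, 0.86 and 7.95. Of these, only Ina over Nefm changed in its exact p. The other pairs passed because it joined them at the smallest possible p.

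The proportions of the chains varied with the library. The ratio of Nefl to Nefm per kilobase was 2.88, 3.20 and 7.68 in 15-HETrE 1, unnumbered and combined, and 1.98, 1.88 and 4.42 in vehicle 1, 2 and combined. The combined library had the highest ratio in both groups, and the groups overlapped. The ratio of Nefh to Nefm was 0.428, 1.28 and 0.650 in 15-HETrE 1, unnumbered and combined, and 0.372, 0.398 and 1.08 in vehicle 1, 2 and combined. Nefh thus exceeded Nefm in 15-HETrE unnumbered and vehicle combined only. The summed CPM per kilobase of the 5 genes was 102, 106 and 157 in 15-HETrE 1, unnumbered and combined, and 49.4, 26.0 and 44.6 in vehicle 1, 2 and combined, so the sum did not overlap while the ratios did.

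**Figure D2:**
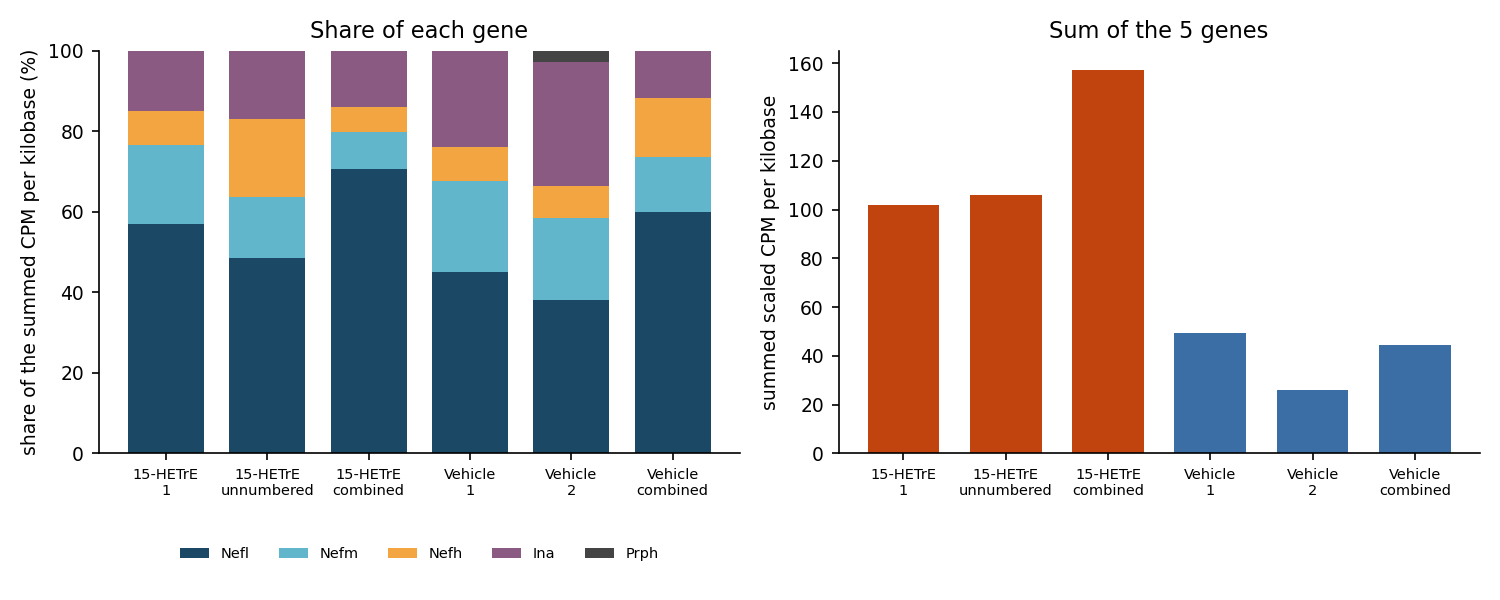
Left, share of each member in the family's summed CPM per kilobase of transcript, by library (stacked bars, percent). Right, that sum by library: the 15-HETrE bars reach 102 to 157 and the vehicle bars 26.0 to 49.4, and Nefl is the largest block in all 6 libraries.

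Within sets of libraries that share a name prefix, or the word "combined", the members kept their direction. The lack of overlap fixes this. Between 15-HETrE 1 and the mean of vehicle 1 and 2, the log2 differences were 1.94 for Nefl, 1.35 for Nefm, 1.46 for Nefh and 0.63 for Ina. Between the combined libraries they were 2.05, 1.22, 0.51 and 2.01 for Nefl, Nefm, Nefh and Ina. Nefl and Nefm were close in both, while Nefh and Ina differed in size between them. The unnumbered 15-HETrE library has its own prefix and enters neither value.

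Other neuronal transcripts differed beside the family. Of 10 pan-neuronal markers, 9 were higher in 15-HETrE, with a median log2 difference of 0.73, and 3 had an unadjusted p under 0.05 (limma). All 10 had reads in every library. Over all 14523 genes, 51% were higher in 15-HETrE, with a median of 0.02, and 4.27% were higher at that p. Taken relative to the mean of the pan-neuronal markers, Nefl stood at -0.69, -0.27 and 0.69 (log2) in 15-HETrE 1, unnumbered and combined, and at -1.50, -1.98 and -0.45 in vehicle 1, 2 and combined. The groups overlapped on this scale, because vehicle combined lay above 15-HETrE 1. Nefm stood at -2.22, -1.95 and -2.24 in 15-HETrE 1, unnumbered and combined, and at -2.48, -2.88 and -2.56 in vehicle 1, 2 and combined, without overlap. Nefh and Ina overlapped. The mean of the 4 abundant members differed by 1.46 between the groups before this subtraction, without overlap, and by 0.76 after it, with overlap.

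**Figure D3:**
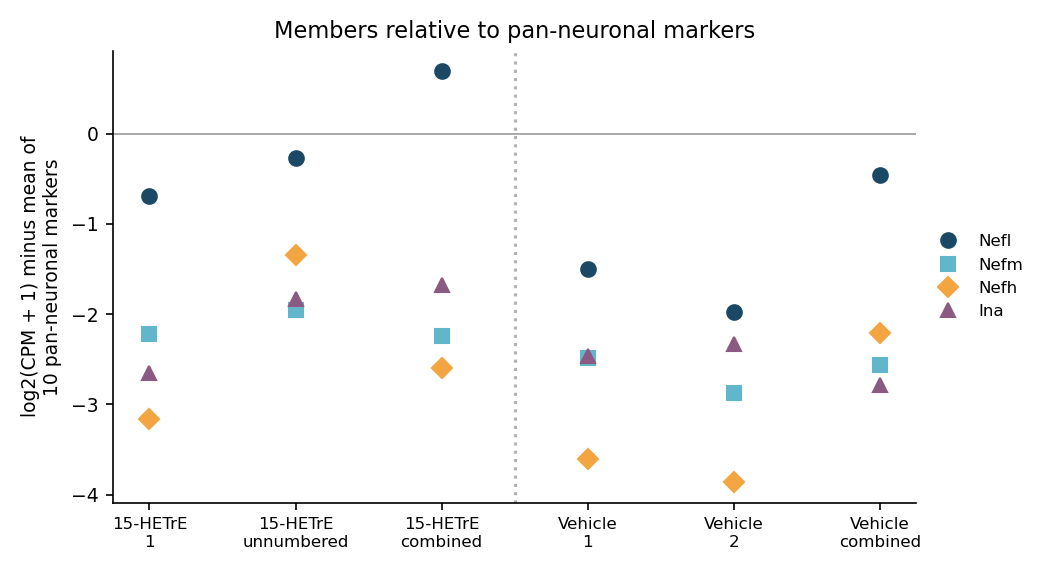
Level of Nefl, Nefm, Nefh and Ina in each library as log2(CPM + 1) minus the mean of 10 pan-neuronal markers, 15-HETrE libraries left of the dotted line and vehicle right. Nefl spans -0.69 to 0.69 in 15-HETrE and -1.98 to -0.45 in vehicle libraries, and the ranges overlap.

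Markers of other cells also differed between libraries. On the mean, all 5 fibroblast markers were lower in 15-HETrE, 1 of them at an unadjusted p under 0.05 (limma) and 0 without overlap. Their sum was 20.5 to 1303 CPM in 15-HETrE and 63.3 to 8167 CPM in vehicle libraries. The fibroblast mean differed by -5.58 between 15-HETrE 1 and vehicle 1 and 2 and by -0.79 between the combined libraries. Col3a1 and Lum were higher in 15-HETrE combined than in vehicle combined (7.97 against 2.34 and 0.95 against 0.18 CPM), and the other fibroblast markers lower. All 5 pericyte and smooth muscle markers were also lower, with a median of -1.17, 3 of them at an unadjusted p under 0.05 (limma) and 3 without overlap. Over all genes, 760 (5.23%) were lower at that p, and 1209 (8.32%) did not overlap with 15-HETrE lower. These markers summed to 143 to 443 CPM in 15-HETrE and 363 to 828 CPM in vehicle libraries. Of 5 endothelial markers, 2 were higher and 3 lower, with sums of 24.9 to 84.6 CPM in 15-HETrE and 69.2 to 194 CPM in vehicle libraries. Of 7 astrocyte markers, 6 were higher in 15-HETrE, with sums of 1328 to 20599 CPM in 15-HETrE and 632 to 7555 CPM in vehicle libraries. The combined library had the highest sum of each group, as it did for Nefl. Microglial markers summed to 33.1 to 94.9 CPM in 15-HETrE and 38.7 to 134 CPM in vehicle libraries. The part of these cells in the family's differences was not tested.

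Most of the other intermediate filament genes listed, which include genes of the nuclear lamins, were lower in 15-HETrE. Of 11 listed genes, 9 passed the filter, of which 2 were higher and 7 lower in 15-HETrE, with a median log2 difference of -0.76. At an unadjusted p under 0.05, 4 were lower and 0 higher (limma), against 5.23% and 4.27% over all genes. The groups did not overlap for 3 lower and 0 higher genes, against 8.32% and 6.84% over all genes. Nes, which encodes nestin of progenitor and reactive cells, had 11.97, 34.8 and 28.5 CPM in 15-HETrE 1, unnumbered and combined, against 139, 137 and 56.8 CPM in vehicle 1, 2 and combined (log2 difference -2.12, SE 0.47, adjusted p 0.334, limma). The groups did not overlap for Nes. Lmna, which encodes the nuclear lamins A and C, averaged 45.6 ± 20.9 CPM in 15-HETrE and 124 ± 35.7 CPM in vehicle libraries, also without overlap (adjusted p 0.394, limma). Vim, the vimentin gene of mesenchymal and glial cells, had 124, 416 and 76.5 CPM in 15-HETrE 1, unnumbered and combined, against 1585, 1583 and 298 CPM in vehicle 1, 2 and combined, with overlap (adjusted p 0.394, limma). Gfap, of astrocytes, was one of the higher genes, with 199, 91.4 and 676 CPM in 15-HETrE 1, unnumbered and combined, and 92.9, 24.8 and 568 CPM in vehicle 1, 2 and combined. The epithelial keratin genes Krt8 and Krt18 had no read in any library.

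Genes that modify neurofilaments were mostly higher in 15-HETrE, and none passed over all genes. Of 14 kinase, phosphatase and isomerase genes, 11 were higher, with a median of 0.27, and 2 had an unadjusted p under 0.05 (limma). Over all genes, 51% were higher, and 4.27% were higher at that p. Cdk5r1, an activator of the neuronal kinase Cdk5, averaged 155 ± 43.1 CPM in 15-HETrE and 84.3 ± 16.3 CPM in vehicle libraries (log2 difference 0.85, adjusted p 0.460, limma). Cdk5r2, the other activator, averaged 103 ± 47.0 CPM in 15-HETrE and 42.7 ± 21.1 CPM in vehicle libraries, with overlap (adjusted p 0.462, limma). Mapk10, a stress kinase of neurons, had a log2 difference of 0.69 (adjusted p 0.538, limma).

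Genes of neurofilament breakdown and chaperoning were divided. Of 9, 3 were higher and 6 lower in 15-HETrE, with a median of -0.47, and 1 higher and 4 lower genes had an unadjusted p under 0.05, against 4.27% and 5.23% over all genes. Hspb1, a small heat shock protein, had 1.91, 14.5 and 11.4 CPM in 15-HETrE 1, unnumbered and combined, against 37.3, 58.4 and 29.5 CPM in vehicle 1, 2 and combined. All 3 15-HETrE libraries lay below the vehicle libraries (log2 difference -2.32, SE 0.64, adjusted p 0.394, limma). Capn2, a subunit of a calpain, the proteases that cut neurofilaments in injured axons, averaged 79.2 ± 24.3 CPM in 15-HETrE and 127 ± 3.81 CPM in vehicle libraries (adjusted p 0.482, limma). Trim2, a ubiquitin ligase that binds the light chain, averaged 462 ± 61.1 CPM in 15-HETrE and 309 ± 50.5 CPM in vehicle libraries (adjusted p 0.507, limma). Neither Capn2 nor Trim2 overlapped between groups. On this list 1 higher and 2 lower genes did not overlap, against 6.84% and 8.32% over all genes.

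Among transport motors and cross-linkers, 10 of 12 genes were higher (median 0.26), and 2 of these had an unadjusted p under 0.05 (limma). Over all genes these shares were 51% and 4.27%. Klc2, a light chain of kinesin, averaged 71.4 ± 4.49 CPM in 15-HETrE and 40.6 ± 11.1 CPM in vehicle libraries, without overlap (adjusted p 0.462, limma). Kif5c and Kif5a, heavy chains of the kinesin of fast axonal transport, had log2 differences of 1.21 and 1.61 with overlapping groups (adjusted p 0.517 and 0.602, limma). Kif5a had 1649, 513 and 5609 CPM in 15-HETrE 1, unnumbered and combined, and 391, 231 and 1823 CPM in vehicle 1, 2 and combined, the combined library being the highest of each group as for Nefl. RNA-binding proteins of the list were even, 3 higher and 3 lower, with a median of -0.01 and none at an unadjusted p under 0.05. Among them, Elavl4, Arhgef28 and Hnrnpk had log2 differences of 0.71, 0.57 and -0.41 (adjusted p 0.548, 0.627 and 0.597, limma).

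Among other parts of the axonal skeleton and membrane, 16 of 17 genes were higher (median 0.62), and 6 had an unadjusted p under 0.05. The groups did not overlap for 7 of the 17, all with 15-HETrE higher. Over all genes these shares were 4.27% and 6.84%. Sptbn4, a spectrin of the axon initial segment and nodes, had 103, 130 and 108 CPM in 15-HETrE 1, unnumbered and combined, against 69.9, 55.3 and 69.1 CPM in vehicle 1, 2 and combined (log2 difference 0.80, SE 0.25, adjusted p 0.422, limma). Cntnap1, an axonal protein of the junctions beside the nodes, averaged 89.7 ± 31.9 CPM in 15-HETrE and 38.4 ± 12.7 CPM in vehicle libraries (adjusted p 0.425, limma). Map1a, a microtubule-associated protein, averaged 2325 ± 1148 CPM in 15-HETrE and 1030 ± 255 CPM in vehicle libraries (adjusted p 0.462, limma). The member of this list that was lower, Tubb3, the neuronal beta-tubulin, had 107, 95.7 and 50.1 CPM in 15-HETrE 1, unnumbered and combined, and 129, 135 and 57.2 CPM in vehicle 1, 2 and combined; it was named after its values were seen.

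Genes of the axon injury response were evenly divided. Of 8, 6 passed the filter, 3 of them higher and 3 lower in 15-HETrE, with a median of 0.00. At an unadjusted p under 0.05, 0 were higher and 2 lower, Atf3 and Klf6 (limma), against 4.27% and 5.23% over all genes. Atf3, a transcription factor induced by axon injury, averaged 23.2 ± 12.7 CPM in 15-HETrE and 56.5 ± 20.4 CPM in vehicle libraries, without overlap (log2 difference -1.32, SE 0.43, adjusted p 0.448, limma). Klf6, a transcription factor, averaged 132 ± 20.2 CPM in 15-HETrE and 278 ± 120 CPM in vehicle libraries (adjusted p 0.460, limma). Gap43, a growth cone protein, averaged 61.8 ± 29.1 CPM in 15-HETrE and 37.1 ± 12.1 CPM in vehicle libraries (adjusted p 0.637, limma). Atf3 and Klf6 are also expressed by cells other than neurons.

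Neurons that carry much heavy chain in the cortex include layer 5 projection neurons and parvalbumin interneurons. Of 6 layer 5 genes, 4 were higher, with a median of 0.34, while over all genes 51% were higher. Pcp4, a calmodulin-binding protein of deep-layer neurons, had 98.8, 57.8 and 62.6 CPM in 15-HETrE 1, unnumbered and combined, against 34.6, 22.1 and 15.8 CPM in vehicle 1, 2 and combined, without overlap (log2 difference 1.58, SE 0.37, adjusted p 0.358, limma). Fezf2 and Bcl11b, transcription factors of these neurons, had log2 differences of 1.53 and 0.66 with overlap (adjusted p 0.599 and 0.646, limma). The rest of the layer 5 list, Crym, Etv1 and Parm1, had log2 differences of -0.40, -0.15 and 0.02, also with overlap. Of 6 parvalbumin interneuron genes, 4 were higher, with a median of 0.195, and none had an unadjusted p under 0.05. Pvalb itself had 3.64, 7.28 and 1.76 CPM in 15-HETrE 1, unnumbered and combined, and 2.80, 3.24 and 30.6 CPM in vehicle 1, 2 and combined. Syt2, a vesicle calcium sensor of fast-spiking cells, had 3.32, 27.3 and 11.2 CPM in 15-HETrE 1, unnumbered and combined, and 5.14, 1.30 and 4.14 CPM in vehicle 1, 2 and combined (adjusted p 0.597, limma). It was highest in the unnumbered library, as Nefh was. Kcnc1, a potassium channel of fast-spiking cells, had a log2 difference of 0.38 (adjusted p 0.721, limma).

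**Figure D4:**
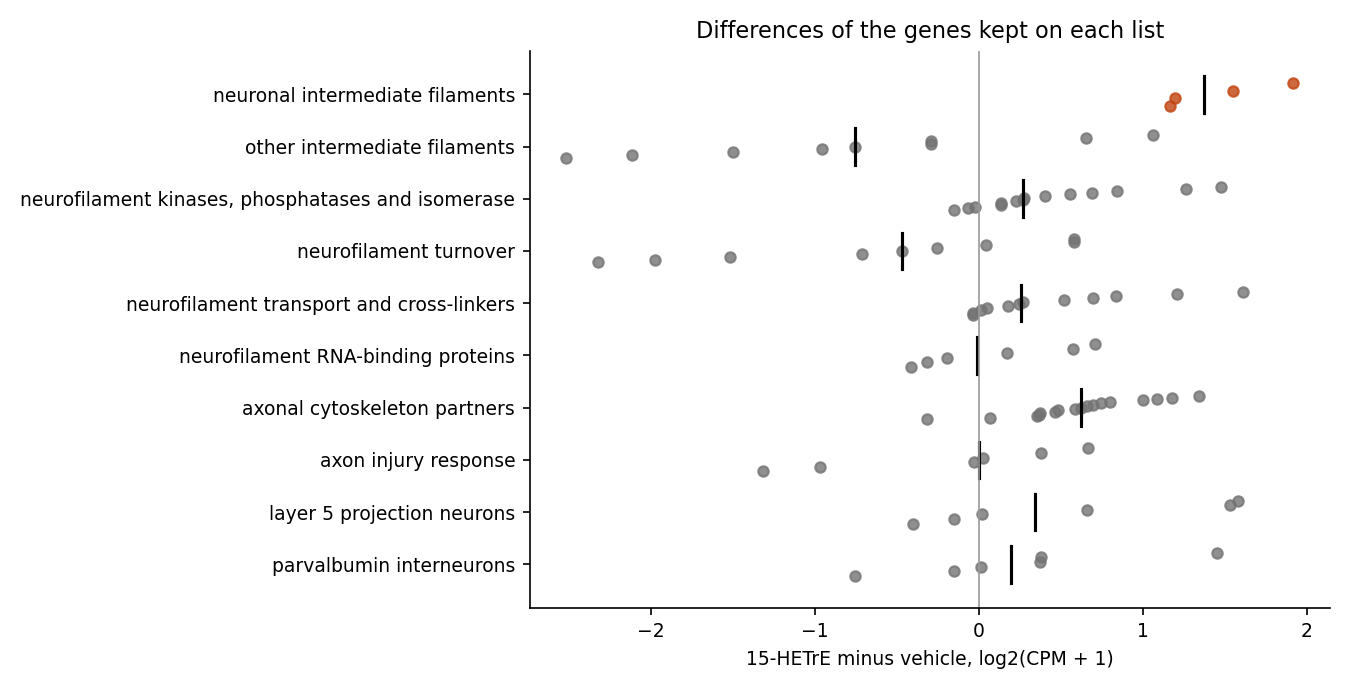
Log2 difference, 15-HETrE minus vehicle, of each gene kept on the members' list and the 9 other function lists (points), cell type marker lists not drawn, with the median of the list as a vertical bar. The 4 members lie between 1.17 and 1.92, and the medians of the other 9 drawn lists between -0.76 and 0.62.

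Genes with a library profile like that of Nefl were sought over the 6 libraries by the root mean square distance between log2(CPM + 1) profiles, each centred on its own mean, among genes whose mean reached 5 CPM. The 5 nearest were Stac2, Kcnh3, Panx2, Bend6 and Rab11fip4, at distances of 0.29, 0.29, 0.30, 0.34 and 0.35. Stac2, an adaptor of calcium channels, had 50.7, 49.9 and 121 CPM in 15-HETrE 1, unnumbered and combined, against 23.0, 6.48 and 36.7 CPM in vehicle 1, 2 and combined. Kcnh3, a potassium channel of the forebrain, had 101, 56.8 and 137 CPM in 15-HETrE 1, unnumbered and combined, against 37.3, 18.7 and 34.7 CPM in vehicle 1, 2 and combined. Both were highest in 15-HETrE combined and lowest in vehicle 2, as Nefl was. That they are higher in 15-HETrE follows from how they were sought. The other chains were farther from Nefl: Nefh ranked 309, Nefm 349 and Ina 463 among 11522 genes, at distances of 0.68, 0.69 and 0.73.

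**Figure D5:**
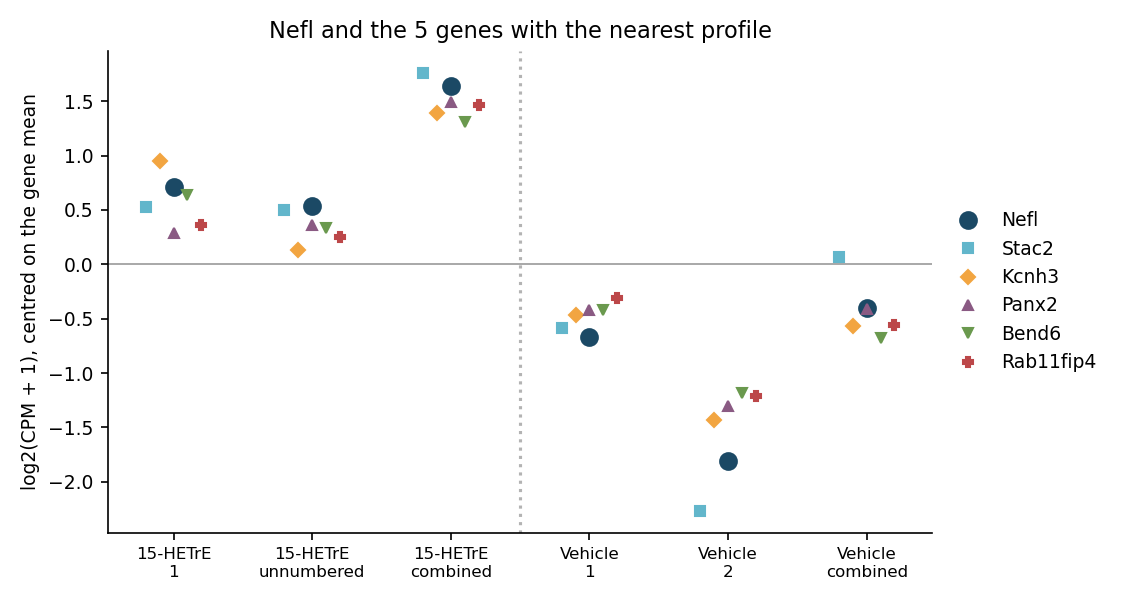
Profiles over the 6 libraries of Nefl and of the 5 genes nearest to it, as log2(CPM + 1) centred on each gene's mean, 15-HETrE libraries left of the dotted line and vehicle right. All 6 genes are highest in 15-HETrE combined and lowest in vehicle 2, and the genes were chosen for this likeness.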

How the data were processed

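RNA-seq of 3 15-HETrE and 3 vehicle libraries was analysed. Library preparation used the Ovation SoLo kit, per the labels' protocols. Reads were processed with HISAT2, Trimmomatic, edgeR and featureCounts against mm10, per the submitters' processing notes; versions, settings and gene annotation are not stated there. The deposited values are a signal, CPM to which the authors applied a size factor for each library; column sums were 960982 to 1080354. All values were whole multiples of the smallest value of their column within 0.0001 reads, so reads could be recovered.

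A mean of 1 CPM or more was required, which kept 14523 of 24419 genes. limma 3.58.1 (R 4.3.3) was run on log2(CPM + 1), treatment being the only term, a mean-variance trend, two-sided, and Benjamini-Hochberg adjustment over all genes kept. Differences are 15-HETrE minus vehicle, and the scale understates changes of low genes. The test planned for CPM was applied to the scaled CPM. SDs beside mean CPM are over 3 libraries in CPM. Alternatives included edgeR 4.0.16 and DESeq2 1.42.0 on recovered reads. Transcript lengths, from GENCODE M21, are those of the transcript with the longest coding sequence. The fits were run on simulated counts without batch or cell mixture effects, and the criterion was the direction of the set changes. That check does not bear on why the settings called different numbers of genes.

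The members and lists were chosen with earlier results of these data known. The genes named are all members, up to 3 genes per function list with the smallest p, marker lists by counts, and the 5 genes nearest to Nefl; predicted genes and pseudogenes were left out of the last. Other genes named (Tubb3, Gfap, Pvalb, Krt8, Krt18, Crym, Etv1, Parm1, Col3a1 and Lum) were chosen after their values were seen. A gene named by the rule is not reported here.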

Additional observations from a re-analysis of the deposited data

How the results depend on the processing

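The log2 differences of Nefl, Nefm, Nefh and Ina kept their direction, and stayed within 1 SD of the value given, in all 19 alternatives run. This SD is that between libraries of a group on log2(CPM + 1), pooled over both groups. It is wide, so that a fall of Ina from 1.17 to 0.75 counts as within it. They ranged over 1.50 to 2.20 for Nefl, 0.99 to 1.52 for Nefm, 1.05 to 2.07 for Nefh and 0.75 to 1.44 for Ina; as the groups do not overlap, leaving out a library could not turn them. Prph failed the filter and has no value there.

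The count of called genes was less stable. DESeq2 called 35 higher and 130 lower, library weights 1059 and 1366, the fit without both combined libraries 3 and 201, and the name prefix as a batch term 1 and 7. Leaving out each library in turn gave 0 to 2 genes higher and 0 to 108 lower, with all calls in the fit without vehicle combined. The cause was not tested. The other alternatives called 0 genes.

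By coding length, the order of levels per kilobase gave 1.50 for Nefl over Ina, 0.86 for Ina over Nefm and 7.95 for Nefh over Prph. All had an adjusted exact p of 0.0417 by the sign-flip test. The pairs were taken from the values tested, so this is a description. Length alone changed: the coding part is 1503 of 3240 bases for Ina and 2544 of 3334 for Nefm. Nefl over Ina and Nefh over Prph had the smallest possible p by transcript length too, and passed only because Ina over Nefm reached it. The 5 genes nearest to Nefl were the same with a filter at 1 CPM. No paired analysis was possible because the columns of both groups share a single replicate number; the name prefix, which spans both groups, is the batch term given above. Depth limits Prph and, in vehicle combined, Ina and Nefm.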
